A study of Mus musculus with 4 samples.

Results

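ErbB receptors and EGF-family ligands are described here in mammary tumours of mice, as 10 genes chosen by symbol: the receptors Egfr, Erbb2, Erbb3 and Erbb4 and the ligands Areg, Ereg, Hbegf, Btc, Tgfa and Nrg1. All 10 were present among the 23282 gene rows of the count tables, and 8 of them had enough counts to be tested. RNA sequencing was done on 4 tumour samples of female FVB mice aged 14 weeks. All of them carried PyMT, the middle T antigen of polyoma virus. Their genotypes were Nr1d1+/+;PyMT in 2 samples and Nr1d1-/-;PyMT in the other 2. Nr1d1 encodes REV-ERBα, a transcriptional repressor of the circadian clock. The sources used here do not name the promoter that drove PyMT or the design of the Nr1d1 null allele. They also do not say whether each sample came from a separate animal, so each p-value measures sample spread that can be technical.

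The 4 ErbB receptors are tyrosine kinases of the cell surface that act as pairs. EGF, amphiregulin (Areg) and TGFα bind EGFR. Betacellulin (Btc), epiregulin (Ereg) and HB-EGF bind both EGFR and ErbB4, and neuregulin 1 (Nrg1) binds ErbB3 and ErbB4. ErbB2 has no known ligand of its own and is the preferred partner of the others, while ErbB3 has a weak kinase and passes the signal to PI3-kinase. In the mammary gland amphiregulin carries the oestrogen signal that drives duct growth, and PyMT itself recruits Src, Shc and PI3-kinase, which ErbB receptors also use.

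Total counts ranged from 15905404 to 19116279 per library. Levels are normalised read counts as CPM, scaled for depth and by TMM, a normalisation for RNA makeup. Each log2 fold is Nr1d1-/- over Nr1d1+/+ with its standard error (SE), and a gene was called changed at an edgeR adjusted p under 0.05 over all 14801 tested genes. Nr1d1 itself had 20.1 and 10.3 CPM in the libraries labelled Nr1d1+/+ and 10.6 and 12.8 CPM in those labelled Nr1d1-/- (edgeR adjusted p = 0.436), so every direction below rests on the labels alone. The luminal keratins Krt8, Krt18 and Krt19 and the epithelial adhesion gene Epcam were abundant in all 4 libraries (lowest level 423 CPM), which fits the labelled mammary tumour. Summed CPM of 10 skeletal muscle markers was 2.60, 1.87 and 3.78 in 3 libraries and 754 in Nr1d1-/- replicate 1, and all 3 that could be tested were called higher, or 0 of 3 without that library. Rn45s, the ribosomal RNA precursor, took 2.94% and 3.39% of counts in Nr1d1+/+ and 4.36% and 7.64% in Nr1d1-/-. Leaving out Rn45s and small structured RNAs kept Egfr, Erbb2 and Erbb3 called lower (log2 folds -0.92, -0.86 and -1.89).

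Transcripts of 3 of the 4 receptors were lower in the Nr1d1-/- tumours: Erbb3 by a log2 fold of -1.89, Egfr by -0.93 and Erbb2 by -0.86. Erbb4 was near the detection floor. No ligand passed the test, although 4 of the 5 tested ligands had a negative log2 fold. In all, 3 of the 8 tested genes fell, none rose and 5 did not pass, against 17.3% of all tested genes called lower, 16.5% called higher and 33.9% called in either direction. Erbb4 and Ereg are not in this count. The median log2 fold was -0.80 over the 8 tested genes and -0.01 over all tested genes. These are whole-tumour libraries, in which fewer cells of a type and less RNA per cell cannot be told apart.

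**Figure D1:**
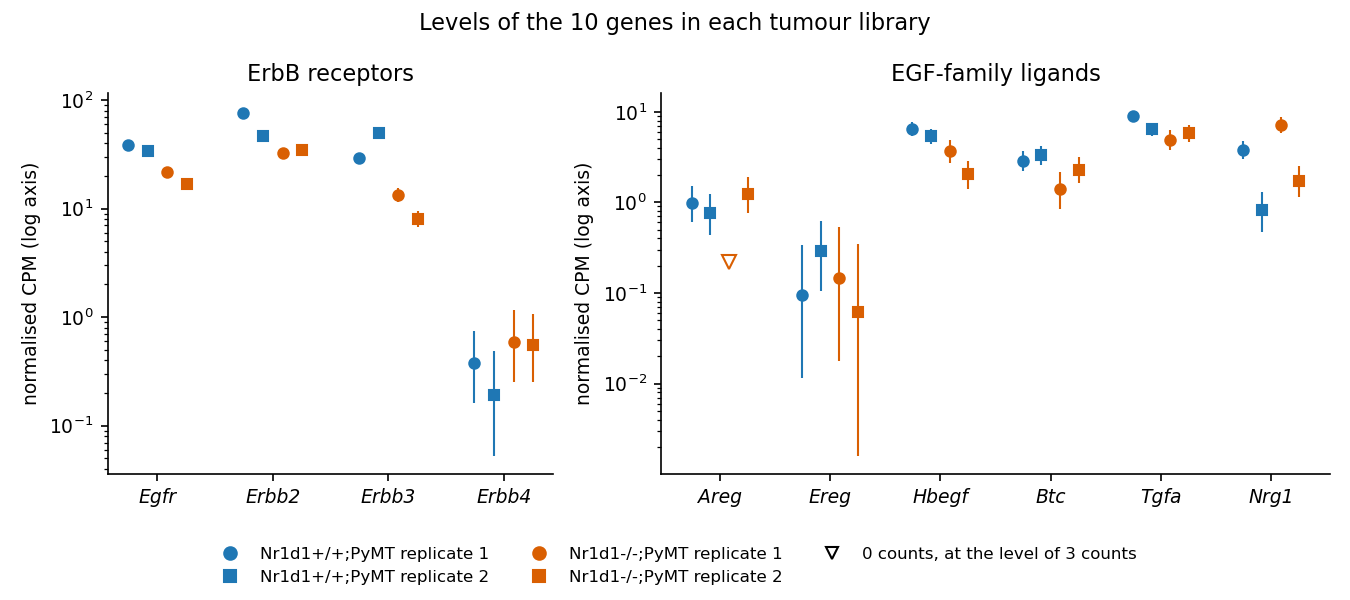
Level of each of the 10 genes in each library as normalised CPM on a log axis, receptors left and ligands right, with exact Poisson 95% intervals that cover counting error only. For Egfr, Erbb2 and Erbb3 both Nr1d1-/- libraries lie below both Nr1d1+/+ libraries, and the open triangle marks Areg with 0 counts in Nr1d1-/- replicate 1.

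Erbb3, the neuregulin receptor with the weak kinase, is a minus-strand gene of chromosome 10, bases 128567523 to 128589652 of GRCm38, the build of all positions given. In replicate order it had 29.5 and 49.7 CPM with Nr1d1+/+ and 13.4 and 8.06 CPM with Nr1d1-/-. The genotypes did not overlap, and the highest value came from Nr1d1+/+ replicate 2. The mean fell from 39.6 ± 14.3 to 10.7 ± 3.78 CPM (SD, n = 2 each, as for all means given). The log2 fold was -1.89 with a 95% interval of -2.66 to -1.12 (SE 0.34, edgeR adjusted p = 0.00491). Only 2.41% of tested genes had a lower log2 fold. Erbb3 was called lower in all 15 alternatives run, with log2 folds from -2.30 to -1.48.

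Egfr, the receptor of EGF, lies on chromosome 11 from 16752203 to 16918158 on the plus strand. Its level was 38.2 and 34.3 CPM in Nr1d1+/+ and 21.5 and 16.7 CPM in Nr1d1-/-, in replicate order. Both Nr1d1-/- values lay below both Nr1d1+/+ values, and replicates of a genotype differed by less than the gap between the genotypes. The Poisson intervals of the Nr1d1-/- replicates did not overlap (19.1 to 24.1 and 14.7 to 18.8 CPM). On average Egfr fell from 36.2 ± 2.79 to 19.1 ± 3.43 CPM. The edgeR adjusted p was 0.0159 for a log2 fold of -0.93 (SE 0.23, 95% interval -1.45 to -0.40). The call ended without Nr1d1+/+ replicate 1 (log2 fold -0.88, edgeR adjusted p = 0.0599).

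Erbb2, the receptor without a ligand, lies on chromosome 11 from 98412470 to 98437716 on the plus strand, 0.33 Mb from Nr1d1. Its level was 75.9 and 46.3 CPM in Nr1d1+/+ and 32.7 and 34.6 CPM in Nr1d1-/-. The genotypes did not overlap, and Nr1d1+/+ replicate 1 stood well above the other 3 libraries. On average Erbb2 fell from 61.1 ± 20.9 to 33.7 ± 1.31 CPM. The edgeR adjusted p was 0.0309 for a log2 fold of -0.86 (SE 0.25, 95% interval -1.44 to -0.28). Without Nr1d1+/+ replicate 1 the log2 fold was -0.50 and was not called (edgeR adjusted p = 0.226), and without Nr1d1-/- replicate 1 it was -0.82 and was not called (edgeR adjusted p = 0.0654).

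The starts of the 2 receptor genes on chromosome 11 that fell are shown because both lie on the chromosome of Nr1d1 and both fell. No such window was found for Erbb3, the receptor with the largest fall. Of the 2 genes shown, Erbb2 lies 0.33 Mb from Nr1d1, and Egfr lies far from both on the chromosome. Each line gives 250 bases before to 50 bases after the start in RefSeq (GRCm38.p6, plus strand), at chr11:16751953-16752252 for Egfr and chr11:98412234-98412533 for Erbb2, with motif matches in capitals.
Egfr: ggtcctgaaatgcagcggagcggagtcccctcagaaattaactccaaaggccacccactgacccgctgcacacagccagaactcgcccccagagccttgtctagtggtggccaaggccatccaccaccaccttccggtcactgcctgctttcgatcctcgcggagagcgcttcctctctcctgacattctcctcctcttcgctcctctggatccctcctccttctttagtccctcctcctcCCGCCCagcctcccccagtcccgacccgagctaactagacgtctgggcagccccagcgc
Erbb2: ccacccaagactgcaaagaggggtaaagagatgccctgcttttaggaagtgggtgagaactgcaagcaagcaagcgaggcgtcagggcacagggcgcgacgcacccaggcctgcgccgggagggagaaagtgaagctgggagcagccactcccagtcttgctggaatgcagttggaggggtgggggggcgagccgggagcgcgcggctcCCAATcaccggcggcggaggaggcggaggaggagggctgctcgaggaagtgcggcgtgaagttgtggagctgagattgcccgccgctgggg
Motifs were searched on both strands as AGGTCA (the core hexamer of nuclear receptor sites, which REV-ERBα also recognises), GGGCGG (the GC box), CCAAT and TATAAA, and no matches overlapped. The Egfr window held a GC box on the opposite strand from base -9 to -4, and the Erbb2 window held CCAAT from base -41 to -37. Among 32851 RefSeq windows of this length, 35.7% held the GC box, 37.4% CCAAT, 16.3% AGGTCA and 13.6% TATAAA. Among the 13974 windows of tested genes, 59.5% held the GC box, 37.3% CCAAT and 7.66% TATAAA, and 12.98% AGGTCA. None of the 6 windows found for the 10 genes (Egfr, Erbb2, Erbb4, Areg, Btc and Tgfa) held AGGTCA, which describes these letters in this window alone. The GC content of the windows was 62.3% for Egfr and 66.0% for Erbb2.

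Erbb4, the other neuregulin receptor, is a minus-strand gene of chromosome 1, bases 68032186 to 69108059, and was too low to be tested. It had 8 and 4 counts in Nr1d1+/+ and 8 and 9 counts in Nr1d1-/-, or 0.378, 0.191, 0.586 and 0.558 CPM. The Poisson interval was 0.0521 to 0.490 CPM for the lowest library and 0.253 to 1.15 CPM for the highest. Both Nr1d1-/- values lay above both Nr1d1+/+ values, but the counting intervals overlapped, and the difference was not tested in the reported fit. Without a filter the log2 fold was 0.95 and was not called (edgeR adjusted p = 0.447).

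Per length, Erbb2 was the most abundant receptor in every library. Per kilobase of exon, Erbb2 had 14.6, 8.89, 6.28 and 6.64 CPM, the Nr1d1+/+ libraries first and the Nr1d1-/- libraries last, each in replicate order. In the same order Erbb3 had 4.90, 8.26, 2.23 and 1.34 CPM per kilobase, and Egfr had 3.37, 3.02, 1.90 and 1.47. Erbb3 stood above Egfr in both Nr1d1+/+ libraries, while the ranges of Erbb3 and Egfr overlapped in Nr1d1-/-. The receptor sum per kilobase was 22.9 and 20.2 CPM in Nr1d1+/+ and 10.5 and 9.50 CPM in Nr1d1-/-, so the genotypes did not overlap. Erbb2 made up 63.7% and 44.0% of that sum in Nr1d1+/+ and 60.1% and 69.9% in Nr1d1-/-, and Erbb3 made up 21.4% and 40.9% against 21.3% and 14.1%. The Erbb2 shares overlapped between the genotypes, and the Erbb3 shares of both replicates 1 were nearly equal.

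**Figure D2:**
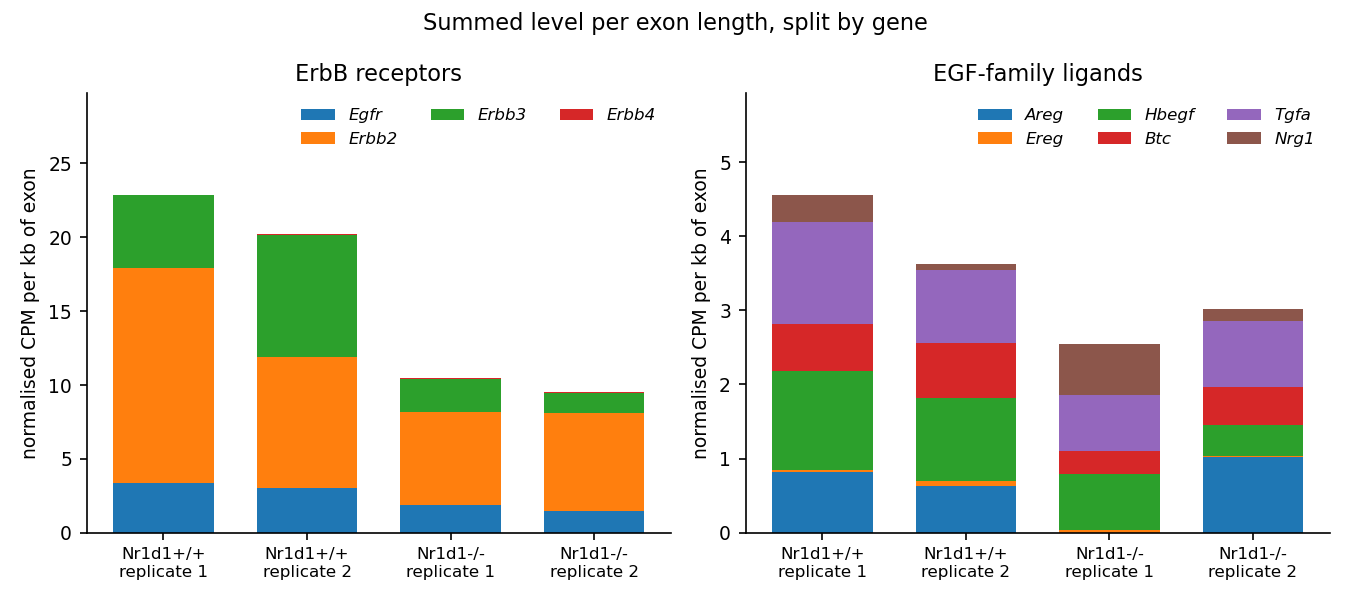
Stacked levels of the receptors (left) and ligands (right) in each library, in normalised CPM per kilobase of exon. Receptor sums are 22.9 and 20.2 in Nr1d1+/+ and 10.5 and 9.50 in Nr1d1-/-, and Erbb4 and Ereg are too low to see in most bars.

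Length and base composition moved with the genotype across all genes in these libraries. Of the tested genes with at least 5000 bases of exon, 28.9% were called lower and 10.5% higher. All 3 receptors that fell are in that class, with 11326 bases of exon for Egfr, 6016 for Erbb3 and 5210 for Erbb2, and the GC content of their longest transcripts was 44.4%, 51.2% and 57.3%. The trend fitted over all genes on GC content and length gave a log2 difference of -0.48 at the values of Egfr, -0.13 at those of Erbb3 and 0.17 at those of Erbb2. With this trend removed, the log2 fold was -0.45 for Egfr (edgeR adjusted p = 0.176), -1.76 for Erbb3 (edgeR adjusted p = 0.00706) and -1.03 for Erbb2 (edgeR adjusted p = 0.0179). Erbb3 and Erbb2 thus passed and Egfr did not, against 12.1% of genes called lower and 12.4% called higher in that fit.

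**Figure D3:**
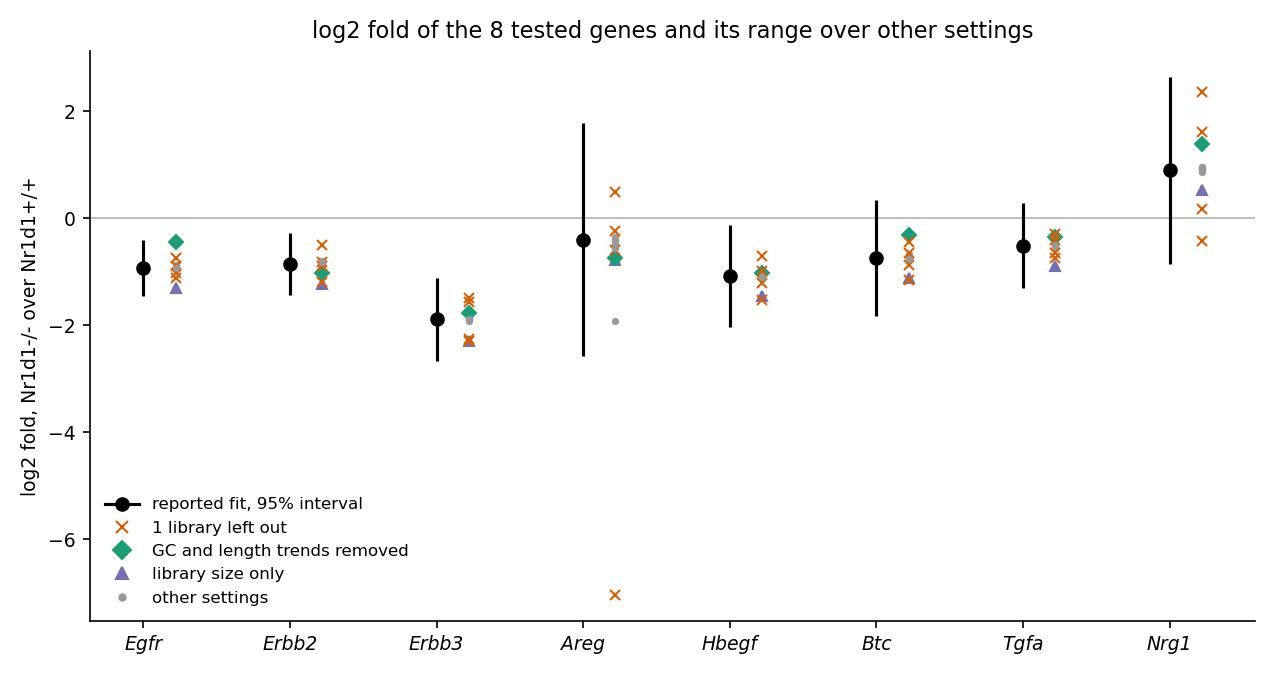
log2 fold of each of the 8 tested genes with its 95% interval (black) and its values under the other settings (beside it). Erbb3 stays between -2.30 and -1.48, Egfr moves to -0.45 with GC and length trends removed, and Areg spans -7.04 to 0.49 depending on the library left out.

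Among the ligands, Hbegf had the lowest p. Its product, HB-EGF, is made as a membrane-anchored precursor and binds EGFR and ErbB4. Hbegf (minus strand of chromosome 18, bases 36504927 to 36515805) had 6.48 and 5.41 CPM in Nr1d1+/+ and 3.66 and 2.05 CPM in Nr1d1-/-. The genotypes did not overlap, but the gene missed the threshold (log2 fold -1.08, SE 0.42, edgeR adjusted p = 0.0797). It passed with library size as the only scaling (log2 fold -1.46, edgeR adjusted p = 0.0226) and without Nr1d1-/- replicate 1 (log2 fold -1.54, edgeR adjusted p = 0.0405).

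Tgfa, on chromosome 6 from 86195223 to 86275719 on the plus strand, encodes TGFα, a ligand of EGFR alone. It had 8.89 and 6.41 CPM in Nr1d1+/+ and 4.91 and 5.77 CPM in Nr1d1-/-. Every Nr1d1-/- value lay below every Nr1d1+/+ value, by a margin smaller than the gap between the Nr1d1+/+ replicates. The log2 fold was -0.51 (SE 0.35, 95% interval -1.31 to 0.28, edgeR adjusted p = 0.282).

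Btc (minus strand of chromosome 5, bases 91357261 to 91402994) encodes betacellulin, a ligand of EGFR and ErbB4. It had 61 and 70 counts in Nr1d1+/+ and 19 and 37 counts in Nr1d1-/-, or 2.88, 3.35, 1.39 and 2.29 CPM. The genotypes did not overlap in level, and the log2 fold was -0.74 (SE 0.48, 95% interval -1.82 to 0.35, edgeR adjusted p = 0.261). It was -0.31 with GC and length trends removed.

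Areg, on chromosome 5 from 91139599 to 91148432 on the plus strand, encodes amphiregulin. It had 21 and 16 counts in Nr1d1+/+ and 0 and 20 counts in Nr1d1-/-, or 0.993, 0.766, 0 and 1.24 CPM. Nr1d1-/- replicate 1 held no Areg count and Nr1d1-/- replicate 2 held the highest level, so the Nr1d1-/- tumours enclosed the Nr1d1+/+ values. The floor of 3 counts was 0.22 CPM in Nr1d1-/- replicate 1, and the Poisson interval of its 0 count reached 0.270 CPM. The Nr1d1+/+ mean of 0.879 CPM was 4.0-fold that floor, which is not a bound on the difference. The log2 fold over all libraries was -0.40 (SE 0.96, edgeR adjusted p = 0.772) and turned to 0.49 without Nr1d1-/- replicate 1 (edgeR adjusted p = 0.618). Without Nr1d1-/- replicate 2, which leaves the library with 0 counts as the lone Nr1d1-/- sample, Areg was called lower (fitted log2 fold -7.04, edgeR adjusted p = 0.031). That library was also the one with the high skeletal muscle counts given above, and the part of muscle in this value was not tested.

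Nrg1 (minus strand of chromosome 8, bases 31814551 to 32884029) encodes neuregulin 1, a ligand of ErbB3 and ErbB4. It was the only tested gene of the 10 with a positive log2 fold. Its level was 3.83 and 0.813 CPM in Nr1d1+/+ and 7.18 and 1.74 CPM in Nr1d1-/-. Both replicates 1 were high and both replicates 2 were low, so the spread within each genotype was larger than the difference between them. The log2 fold was 0.90 (SE 0.77, 95% interval -0.85 to 2.65, edgeR adjusted p = 0.393), 2.37 without Nr1d1+/+ replicate 1 and -0.42 without Nr1d1-/- replicate 1. Of 10 Schwann cell and glia markers, 3 were called higher, 1 lower, 4 did not pass and 2 were not tested. Over all tested genes 16.5% were called higher and 17.3% lower. With GC and length trends removed 3 of these markers were higher and 2 lower. The median log2 fold of the markers was 0.46, or 0.19 with trends removed. The summed level of the 10 markers was 400 and 341 CPM in Nr1d1+/+ and 886 and 568 CPM in Nr1d1-/-. Of these markers Foxd3 was at 0 in every library, and Sox10, which mammary epithelium also expresses, was between 247 and 270 CPM. The part of glial or muscle cells in the Nrg1 values was not tested.

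Ereg, on chromosome 5 from 91074622 to 91093646 on the plus strand, encodes epiregulin and was not tested. It had 2 and 6 counts in Nr1d1+/+ and 2 and 1 counts in Nr1d1-/-. The Poisson intervals of all 4 libraries overlapped, so no difference was detectable at this depth. Without a filter the log2 fold was -0.90 and was not called (edgeR adjusted p = 0.597). Areg, Ereg and Btc lie within 0.209 Mb of Areg on chromosome 5, together with Epgn (epigen, a further EGFR ligand), which had 8 and 3 counts in Nr1d1+/+ and 7 and 1 counts in Nr1d1-/-. With all 4 libraries no gene of this cluster was called, and Epgn and Ereg were not tested.

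Per length, Tgfa and Hbegf led the ligands in Nr1d1+/+. Per kilobase of exon Tgfa had 1.37 and 0.988 CPM and Hbegf had 1.34 and 1.12 CPM there, so these ligands did not differ beyond their spread. Areg with 0.817 and 0.630 and Btc with 0.638 and 0.741 CPM per kilobase overlapped as well, and Nrg1 followed with 0.370 and 0.0786. In Nr1d1-/- replicate 1 the order was Hbegf 0.758, Tgfa 0.756 and Nrg1 0.694 CPM per kilobase. In Nr1d1-/- replicate 2 Areg led with 1.02, before Tgfa with 0.888. Both orders depended on the length used. Per kilobase of the longest annotated transcript, Nr1d1-/- replicate 1 had Nrg1 1.33, Hbegf 1.27 and Tgfa 1.08 CPM. By that length Tgfa with 1.27 stood above Areg with 1.02 in Nr1d1-/- replicate 2. The ligand sum per kilobase was 4.56 and 3.63 CPM in Nr1d1+/+ and 2.55 and 3.02 CPM in Nr1d1-/-. With Tgfa, Hbegf, Btc and the 3 receptors, 6 of the 8 tested genes had lower values in both Nr1d1-/- libraries than in both Nr1d1+/+ libraries, against 36.2% of all tested genes, and none had higher values in both, against 34.4%.

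**Figure D4:**
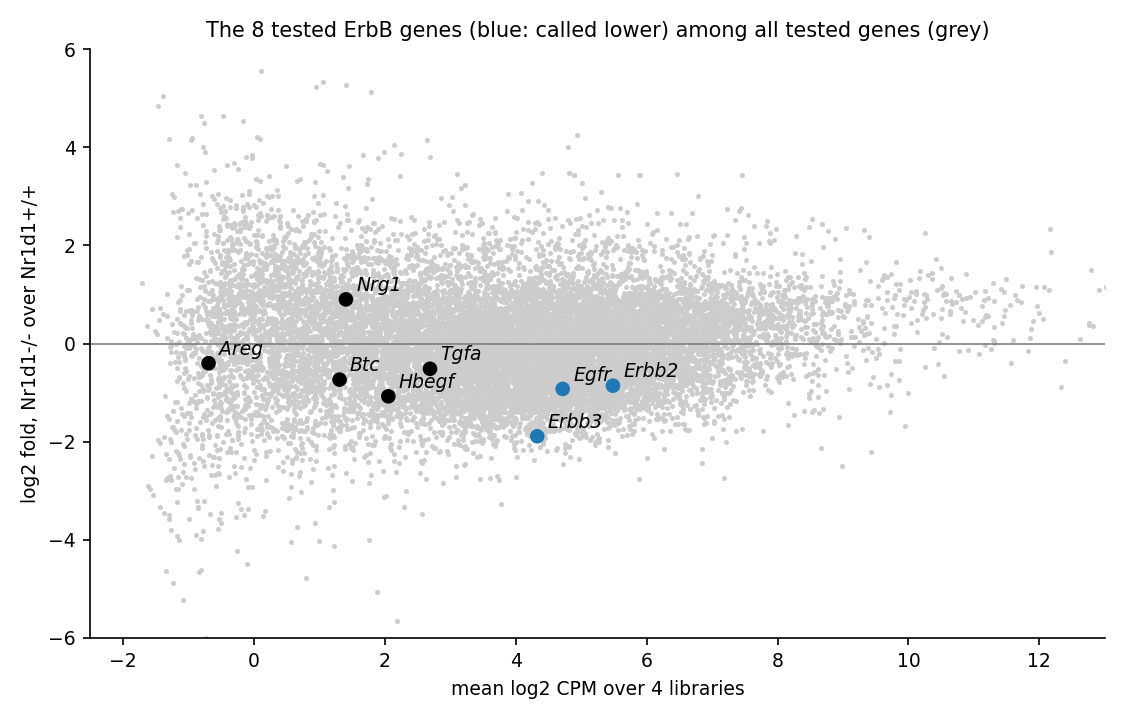
log2 fold of every tested gene against its mean level over the 4 libraries in log2 CPM, with the 8 tested ErbB genes marked and those called lower in blue. Erbb3 lies near the lower edge of the cloud at -1.89 while the ligands lie within it, and 21 genes fall outside the axes.

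Other EGF-family ligands went in both directions. Of the 4 tested genes, 1 was called higher, 1 lower and 2 neither way. Over all tested genes 16.5% were higher and 17.3% lower, and 1 gene of 4 is close to either share. Egf, the ligand of EGFR for which the family is named, had 4.44 and 17.0 CPM in Nr1d1+/+ and 1.39 and 3.04 CPM in Nr1d1-/-. It fell (edgeR adjusted p = 0.0325, log2 fold -2.24, SE 0.67), and Nr1d1+/+ replicate 2 was far above the rest. Without that library the Egf log2 fold was -0.99 and was not called (edgeR adjusted p = 0.333). The call also ended without Nr1d1-/- replicate 1, with trends removed, without a filter and by limma-voom. Nrg2, a ligand of ErbB3 and ErbB4, had 18 and 15.4 CPM in Nr1d1+/+ and 26.3 and 33.4 CPM in Nr1d1-/- and rose (edgeR adjusted p = 0.0269, log2 fold 0.84, SE 0.24). With GC and length trends removed Nrg2 had a log2 fold of 0.17 (edgeR adjusted p = 0.604), and it was not called with library size only (0.46) or when replicate 1 or 2 of Nr1d1+/+ (0.92 and 0.72) or replicate 2 of Nr1d1-/- (0.65) was left out. Nrg3, a ligand of ErbB4, had 6.48 and 7.46 CPM against 13.4 and 10.7 CPM (log2 fold 0.78, edgeR adjusted p = 0.0742) and passed with trends removed (log2 fold 1.02, edgeR adjusted p = 0.0351). Nrg4 stayed at or below 0.806 CPM in every library, with a log2 fold of 0.02 (SE 0.80).

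The median log2 fold was -0.51 for the proteases and carriers that release the ligands. Of the 9 tested genes 4 fell and none rose, against 17.3% lower over all tested genes, or 12.1% with GC and length trends removed. With GC and length trends removed 3 were lower and 1 higher, with a median of -0.30, and without Nr1d1-/- replicate 2 the count was 4 lower and 1 higher. Adam17, which cuts amphiregulin, TGFα and HB-EGF from the membrane, fell from 39.9 ± 4.34 to 18 ± 2.30 CPM (log2 fold -1.15, edgeR adjusted p = 0.00657). Rhbdf2, which encodes iRhom2, a protein that brings ADAM17 to the surface, fell from 37.1 ± 3.49 to 20.6 ± 0.427 CPM (log2 fold -0.85). Adam9 fell from 52.4 ± 12.8 to 21.1 ± 6.37 CPM (log2 fold -1.32). Adam10, the main protease for EGF and betacellulin, fell from 66.1 ± 14.8 to 37.7 ± 2.74 CPM (log2 fold -0.81, edgeR adjusted p = 0.0214) and did not pass with trends removed (log2 fold -0.45, edgeR adjusted p = 0.141). Adam10 also lost its call without Nr1d1+/+ replicate 2 and without Nr1d1-/- replicate 1, and Rhbdf2 without Nr1d1+/+ replicate 1.

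Adaptors and signal relay proteins of the receptors were lower in most members. There, 13 of 21 tested genes fell and none rose, against 17.3% and 16.5% of all tested genes, with a median log2 fold of -1.08. With GC and length trends removed 11 fell and 1 rose, against 12.1% and 12.4% of all genes, with a median of -0.74. Without either Nr1d1-/- library 1 was also higher. Stat3, a transcription factor activated by EGFR, fell from 307 ± 25.5 to 89.5 ± 9.30 CPM (log2 fold -1.78). Ptpn11, which encodes the phosphatase SHP2 that ErbB signals need to reach RAS, fell from 60.0 ± 1.75 to 17.1 ± 0.414 CPM (log2 fold -1.81). Sos2, a RAS exchange factor, fell from 25.9 ± 3.25 to 6.67 ± 1.54 CPM (log2 fold -1.96), and Pik3cb, a catalytic subunit of PI3-kinase, fell from 24.3 ± 3.0 to 7.65 ± 1.28 CPM (log2 fold -1.66). The adaptors Grb2 and Shc1, which dock on activated receptors and were singled out after their values were seen, had log2 folds of 0.02 and 0.04 (-0.36 and -0.34 with library size only) and were not called.

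Of 27 tested receptor inhibitors and turnover factors, 12 fell, 5 rose and 10 were not called, with a median log2 fold of -0.66. Their summed level was 6419 and 6664 CPM in Nr1d1+/+ and 7196 and 6538 CPM in Nr1d1-/-, so the genotypes overlapped. The genes named below all fell, and none of the 5 called higher is among them. Over all tested genes 17.3% were lower and 16.5% higher, so the higher count was near the share over all genes. Usp8, a deubiquitinase that acts on receptors in endosomes, fell from 76.0 ± 14.2 to 18.1 ± 0.139 CPM (log2 fold -2.07). Sh3kbp1 and Cd2ap, adaptors of the ubiquitin ligase CBL, fell from 98.2 ± 16.9 to 29.4 ± 4.79 CPM and from 118 ± 15.9 to 43.4 ± 2.68 CPM. The phosphatase gene Ptpn12 fell from 38.6 ± 4.83 to 10.9 ± 1.05 CPM (log2 fold -1.83). Errfi1 and Lrig1, feedback inhibitors of ErbB receptors that were singled out after their values were seen, fell from 96.5 ± 38.7 to 26.2 ± 5.37 CPM and from 27.6 ± 2.25 to 9.03 ± 0.492 CPM. The count of 5 called higher became 3 with trends removed, with library size as the only scaling and without Nr1d1-/- replicate 1, and 2 without Nr1d1+/+ replicate 2. The count of 12 called lower became 9 with trends removed, where 12.1% of all genes were lower and 12.4% higher, and 18 with library size only.

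Early response and feedback targets of ErbB signalling were mixed, with 10 lower, 4 higher and 14 not called of 28 tested. Their median log2 fold was -0.92, and over all tested genes 17.3% were lower and 16.5% higher. With GC and length trends removed 13 were lower, with a median of -1.04, against 12.1% of all genes in that fit. The lower count was 14 with library size only. Jun and Fos, subunits of AP-1, fell from 104 ± 1.74 to 36.5 ± 1.36 CPM (log2 fold -1.52) and from 54.3 ± 8.93 to 18.1 ± 7.83 CPM (log2 fold -1.59). Spred1 and Spred2, inhibitors of the RAS pathway, fell from 85.5 ± 3.82 to 38.2 ± 3.39 CPM (log2 fold -1.16) and from 14.2 ± 0.524 to 1.81 ± 1.16 CPM (log2 fold -3.00). Etv4, an ETS factor induced by receptor tyrosine kinases and singled out after its values were seen, rose from 6.24 ± 3.34 to 19.7 ± 6.66 CPM (log2 fold 1.66, edgeR adjusted p = 0.0155), and was not called without Nr1d1+/+ replicate 2 (log2 fold 1.19). Dusp6 and Spry2, feedback inhibitors of the same pathway and likewise singled out, had log2 folds of 0.21 and 0.29 (-0.17 and -0.09 with library size only) and were not called. The 4 higher calls became 0 without Nr1d1+/+ replicate 2, 2 without Nr1d1+/+ replicate 1 or Nr1d1-/- replicate 1, 2 with trends removed and 1 with library size only.

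**Figure D5:**
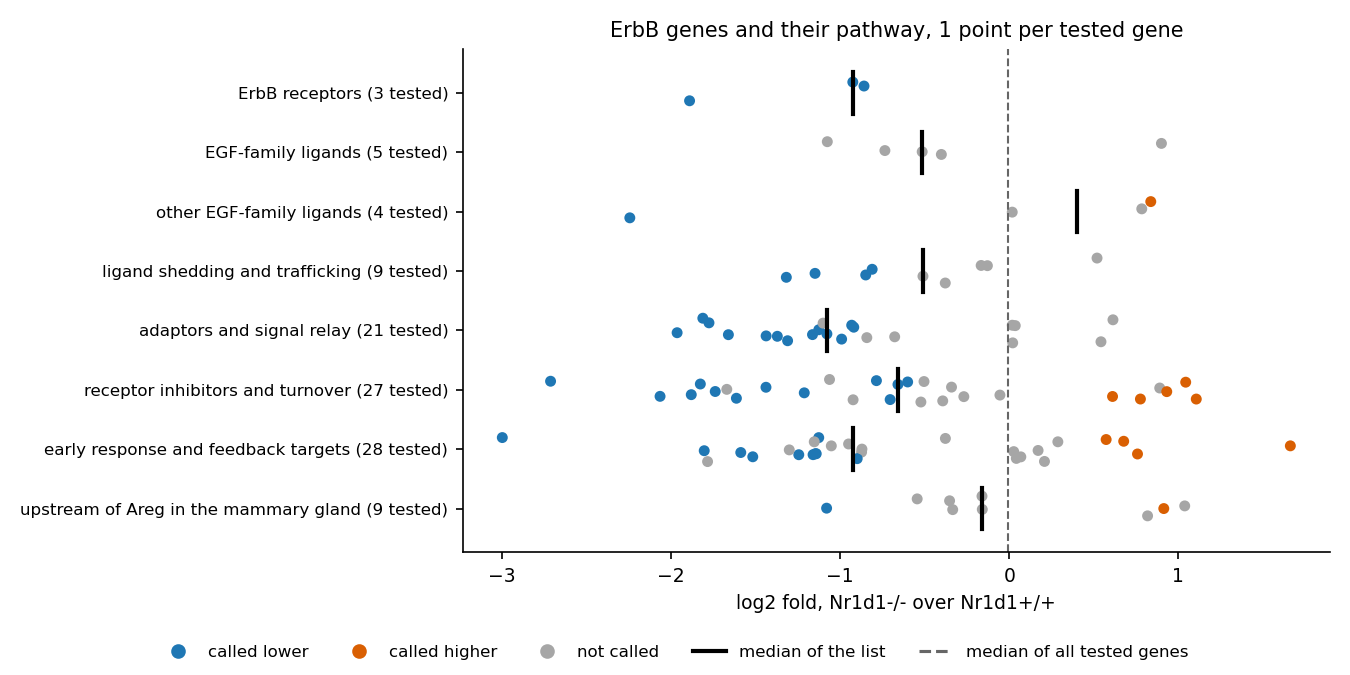
log2 fold of each tested gene in the receptor and ligand lists and in 6 lists of the pathway, 1 point per gene, with the median of each list (black bar) and of all tested genes (dashed line). The adaptor list has 13 of 21 points called lower (blue) and none called higher (orange), and the inhibitor and early response lists hold both.

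Of 9 tested genes known to act upstream of Areg in the mammary gland, 1 rose and 1 fell, near the 16.5% higher and 17.3% lower over all tested genes. Their median log2 fold was -0.16, or 0.11 with trends removed, and with library size only none was called higher and 4 lower. Gata3, a luminal transcription factor, rose from 38.2 ± 6.20 to 72.0 ± 9.80 CPM (log2 fold 0.91, edgeR adjusted p = 0.0118), and was not called without Nr1d1+/+ replicate 2 or with library size only. Yap1, the effector of the Hippo pathway, fell from 81.8 ± 1.30 to 38.7 ± 3.19 CPM (log2 fold -1.08, edgeR adjusted p = 0.00417). The oestrogen receptor gene Esr1 had 4.11 and 3.44 CPM against 2.05 and 3.78 CPM (log2 fold -0.35, edgeR adjusted p = 0.573). The progesterone receptor gene Pgr was at or below 0.372 CPM in every library and was not tested. Esr1 and Pgr were also singled out after their values were seen.

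With all 4 libraries no tested neighbour of Erbb2 on chromosome 11 was called. Of the 7 protein-coding genes within 50 kb, Stard3, Pgap3, Mien1 and Grb7 were tested and none was called, with log2 folds of -0.32, -0.25, 0.55 and 0.02. Pgap3 is involved in lipid anchoring of proteins and Grb7 encodes an adaptor that binds ErbB2. Mien1, transcribed the other way, shares 9 bases with the end of Erbb2. The sources used here do not say whether reads were counted by strand. Mien1 had 81.0 and 51.7 CPM in Nr1d1+/+ and 95.9 and 99.0 CPM in Nr1d1-/-, with a positive log2 fold where that of Erbb2 was negative. Mien1 was called higher without Nr1d1+/+ replicate 1 (log2 fold 0.88, edgeR adjusted p = 0.0259) and with the replicate block (log2 fold 0.59, edgeR adjusted p = 0.0469). With GC and length trends removed, Stard3, Pgap3, Mien1 and Grb7 had log2 folds of -0.57, -0.64, -0.11 and -0.28. All of these were negative, as was that of Erbb2 in the same fit (-1.03), and no neighbour was called. Other annotated genes that overlap the 10, such as Egfros, antisense to Egfr, are not analysed here. The muscle gene Tcap was near 0 in 3 libraries and at 6.01 CPM in Nr1d1-/- replicate 1, Pnmt was at 0 in all 4, and Ikzf3, a lymphocyte factor, did not exceed 0.567 CPM. The difference between Erbb2 and its neighbours was not tested.

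Epithelial markers moved in both directions beside the receptors. Krt8, Krt18 and Krt19 were called higher (log2 folds 0.92, 1.12 and 1.33), and Krt8 and Krt18 were not called with GC and length trends removed (0.35 and 0.49). Cdh1 and Kit, an adhesion molecule and a receptor of luminal progenitors, were called lower (log2 folds -0.73 and -2.15), and 5 of the 10 luminal markers did not pass. Cdh1 was not called without Nr1d1+/+ replicate 1 or without Nr1d1-/- replicate 1 (log2 folds -0.65 and -0.64). Summed CPM of the luminal list was 6909 and 5927 in Nr1d1+/+ and 10543 and 9716 in Nr1d1-/-, and none of its genes was at 0. Of 10 basal markers 6 were called higher and 1 lower (summed level 179 and 193 against 393 and 557 CPM). Endothelial markers had 5 higher of 10 (55.4 and 66.6 against 105 and 133 CPM), macrophage markers 4 of 10 (175 and 259 against 376 and 534 CPM), and fibroblast markers 1 of 10 (862 and 1469 against 1237 and 1488 CPM). Of 9 tested adipocyte markers 5 were called higher (71.7 and 91.5 against 310 and 205 CPM), and none of 5 tested keratinocyte markers was called (37.0 and 56.2 against 43.1 and 49.7 CPM). Over all tested genes 16.5% were called higher and 17.3% lower, and the fibroblast count did not exceed that share. Leaving out each library in turn gave 4 to 7 basal, 2 to 6 endothelial, 4 to 5 macrophage and 3 to 6 adipocyte markers called higher. After trend removal 2 adipocyte, 5 basal, 4 endothelial and 3 macrophage markers were called higher, against 12.4% of all genes in that fit. The part of these cell types in the receptor levels was not tested.

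The genes whose pattern over the 4 libraries was most like each receptor and like Hbegf were found by the distance between log2 CPM values centred on their mean, over 10830 genes for the receptors and 10831 for Hbegf whose mean reached 5 CPM. Ccdc112 and Top3a, a DNA topoisomerase gene, were nearest to Egfr (distances 0.0347 and 0.0350). The transcript 2610015P09Rik and Med7, a Mediator subunit gene, were nearest to Erbb2 (0.107 and 0.122). Acvr1b, an activin receptor gene, and Tbl1x, a corepressor subunit gene, were nearest to Erbb3 (0.148 and 0.212), and Runx1 and Zfp28 were nearest to Hbegf (0.102 and 0.108). These distances over 4 libraries are a description alone.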

How the data were processed

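Transcripts were measured in 4 mammary tumour libraries, 2 per genotype, made with the Clontech SMARTer Stranded RNA-Seq Kit from 1.3 ug of total RNA, per the labels' protocols. The authors deposited unnormalised read counts for each gene symbol, with TopHat and mm10 named in the submitters' processing notes. The counting program, its annotation and its use of strand were not given in the sources used here.

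From these counts, 22230 rows were joined to GENCODE M21 (GRCm38, the mm10 assembly) by symbol and 651 by a synonym, and 401 were not joined. Genes passed edgeR's filterByExpr (minimum count 10). Counts were TMM-scaled (factors 1.11, 1.18, 0.858 and 0.895) and tested with edgeR 4.0.16 in R 4.3.3 (quasi-likelihood F test, legacy=FALSE, genotype only, 2 residual degrees of freedom, Benjamini-Hochberg adjusted p under 0.05 over all genes). Intervals of single libraries are exact Poisson and cover counting error only, and the floor is 3 counts. Length is the merged exons of a gene. The genes, lists and tests were chosen with earlier results of these data known. The text names all 10 genes, up to 4 called genes of each list by lowest p, every gene of a list of 5 or fewer, genes within 50 kb of Erbb2 and the 2 nearest patterns. On simulated data of 2 against 2 libraries the fit called 7.48% of 2-fold changes, 84.9% of 4-fold changes and 0.0137% of unchanged genes. Most 2-fold changes were thus missed there, so a gene not called here can still have changed. The simulation changed few genes and used the same spread for all, unlike these data. Alternatives were DESeq2 1.42.0, limma 3.58.1, other scalings and filters, trend removal (natural splines with 5 degrees of freedom), leaving out each library and a replicate block. Figures were drawn with matplotlib 3.10.9.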

Additional observations from a re-analysis of the deposited data

How the results depend on the processing

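With library size as the only scaling, 1281 genes were higher and 4415 lower (22.5% of calls higher in place of 48.8%), the median log2 fold of all genes was -0.38, and Hbegf passed (-1.46). Egfr was no longer called with GC and length trends removed (log2 fold -0.45), and Erbb2 was no longer called without a filter (-0.89). Leaving out each library in turn gave 1212 to 2464 genes higher and 1277 to 2549 lower, and 1 to 4 of the 10 genes lower, with 1 (Erbb3) without Nr1d1+/+ replicate 1. The log2 folds then ran from -1.12 to -0.75 for Egfr, -1.19 to -0.50 for Erbb2, -2.30 to -1.48 for Erbb3, -1.54 to -0.70 for Hbegf, -7.04 to 0.49 for Areg and -0.42 to 2.37 for Nrg1. The -7.04 sets Areg against a single library with 0 counts and is no bound. Such fits assume that the lone library varies like the other genotype. Per length of the longest annotated transcript, the mean level over 4 libraries was 1.52 CPM per kilobase for Hbegf and 1.43 for Tgfa, in place of 0.91 and 1.0, which reverses their order. Nrg4 changed sign around 0, to -0.36 with library size only, -0.011 without a filter, -0.0064 by DESeq2, -0.032 by limma-voom, -0.0069 with the older estimate, -0.028 with the replicate block, and from -0.69 to 0.43 over the fits that left out a library. The cause of these changes was not tested.

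The labels do not say what the replicate numbers share. Deviations of same-numbered libraries had a correlation of 0.026 across genes, and a replicate block gave 2622 genes higher and 2704 lower and the same 3 of the 10 genes lower. Depth limits Erbb4, Ereg and Areg, which had at most 21 counts in any library. Without a filter the log2 folds were 0.95 for Erbb4 (edgeR adjusted p = 0.447) and -0.90 for Ereg (0.597). DESeq2, limma-voom, the older quasi-likelihood estimate, the upper quartile and DESeq2 scalings, the filter at 5 CPM and the removal of structured RNAs each gave the same 3 receptors lower.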
